A study of Mus musculus with 13 samples.

Results

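The globin genes of the mouse and the chaperone of free alpha-globin are a set of 8 genes chosen by name. The alpha-like genes are Hba-x, which encodes embryonic zeta-globin, and the adult copies Hba-a1 and Hba-a2. The beta-like genes are Hbb-y and Hbb-bh1, which encode the embryonic epsilon-y and beta-h1 chains, and the adult genes Hbb-bs and Hbb-bt. These 7 genes were analysed, out of 23337 genes listed for EKLF+/+ and EKLF-/- cells, 35454 genes for EKLF/GFP cells and 54227 genes for single cells. The chaperone gene, Ahsp, was not analysed here.

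The RNA came from mouse fetal liver at E13.5, from cells selected for F4/80, a surface protein of macrophages. Cells were sorted by FACS for the bulk libraries and taken with magnetic beads for the single-cell library, and by the paper not every bead-selected cell was F4/80+. EKLF, encoded by Klf1, is an erythroid transcription factor, and the study asked which genes depend on it in the macrophages around which red cells mature. There were 12 bulk libraries, with 3 replicates in each of 4 groups, and 1 single-cell library. The labels do not say whether the replicates come from separate litters.

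Wild-type EKLF+/+ cells were compared with EKLF-/- cells, which carry a null allele of the factor. EKLF/GFP+ cells were compared with EKLF/GFP- cells, and all of these come from embryos with a GFP transgene under the EKLF promoter (pEKLF-GFP) and an otherwise wild-type genotype, so GFP reports the activity of that promoter fragment. The labels give the strain C57BL/6 and the age E13.5 for every sample. The paper lists the null line on a 129S4/SvJae background, and inbred strains carry different haplotypes of the adult beta-globin genes. Any such strain difference and the EKLF genotype cannot be told apart. For single cells, EKLF+/+ littermate embryos were pooled before the library was made, so embryos cannot be separated.

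Hemoglobin joins alpha-like and beta-like chains, each holding a heme. Primitive red cells of the yolk sac use the embryonic genes and circulate through the fetal liver at this stage, while definitive red cells made in the liver use the adult genes. EKLF is known for binding CACCC motifs, and the adult beta-globin promoter is its best known target.

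All 7 genes have 3 exons in their main transcript in the GRCm38 annotation. The alpha-like genes lie on the plus strand of chromosome 11, with Hba-x at chr11:32276400-32278116, Hba-a1 at chr11:32283511-32284465 and Hba-a2 at chr11:32296489-32297298. The beta-like genes lie on the minus strand of chromosome 7, with Hbb-y at chr7:103851749-103853216, Hbb-bh1 at chr7:103841637-103843164, Hbb-bs at chr7:103826534-103828096 and Hbb-bt at chr7:103812524-103813996. In each cluster the embryonic genes come before the adult genes in the direction of transcription.

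The adult copies share much of their transcript sequence. Of the 100-base windows along the main transcript, 56.5% in Hba-a1 and 74.5% in Hba-a2 also occur in the other alpha copy, and 62.6% in Hbb-bs and 54.8% in Hbb-bt also occur in the other adult beta gene. No 100-base window of Hba-x, Hbb-y or Hbb-bh1 occurs in another gene.

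In EKLF+/+ and EKLF-/- cells, reads were counted per gene from unique alignments, and between 10695514 and 15362161 reads per library fell on genes. Hba-a1 had 0 reads in all 6 libraries and Hba-a2 had 1 read in all, so adult alpha-globin is not measured by these counts. Hbb-bt is not listed, the older gene names Hbb-b1 and Hbb-b2 had at most 5 reads and 0 reads per library, and adult beta-globin is represented by Hbb-bs. In EKLF/GFP cells, where reads were shared out between transcripts by a model, between 22723279 and 28736396 estimated counts per library fell on genes and all 7 globin genes were measured. Levels below are in CPM, read counts scaled by edgeR to a common library size, unless another scale is named.

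Klf1 itself was read first, as a check of the genotype. Its level was 362, 305 and 376 CPM in EKLF+/+ replicates 1, 2 and 3, against 58.7, 64.2 and 57.1 CPM in those of EKLF-/-. The EKLF-/- libraries were low in every replicate and the groups did not overlap, yet Klf1 RNA remained countable. The difference was -2.53 on the log2 scale (SE 0.12, n = 3 per group), with an adjusted p of 7.22e-06 by the quasi-likelihood test of edgeR, adjusted over 12753 genes by the Benjamini-Hochberg method, the test used for each adjusted p below unless another is named.

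Without EKLF, the embryonic alpha-like gene Hba-x and the adult beta gene Hbb-bs fell to a small fraction of their level, the embryonic beta-like gene Hbb-y was reduced to a lesser degree, and Hbb-bh1 did not pass the test. Of the 4 globin genes with enough counts to test, 3 were called lower and 0 higher, and over all 12753 genes 10.6% were called lower, 9.72% higher and 20.3% in either direction. The number of genes called ranged from 346 to 1730 higher and from 575 to 1889 lower when each library was left out. In bulk cells, fewer cells of a type and less RNA per cell cannot be told apart.

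Hba-x, the embryonic zeta-globin gene, had 1090.2, 2349.7 and 1598 CPM in EKLF+/+ replicates 1, 2 and 3, against 41.9, 39.7 and 40.1 CPM without EKLF. The EKLF-/- libraries lay close together, far under the lowest EKLF+/+ library. The fitted level was 41.4-fold lower in EKLF-/- cells (log2 change -5.37, SE 0.29, n = 3 per group, edgeR adjusted p = 1.43e-05).

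Hbb-bs, an adult beta-globin gene, had 5381, 4776 and 7656 CPM in EKLF+/+ cells and 123, 213 and 124 CPM in EKLF-/- cells. EKLF-/- replicate 2 was the highest of its group and still far under every EKLF+/+ library. The fitted level was 38.8-fold lower in EKLF-/- cells (log2 change -5.28, SE 0.31, n = 3 per group, edgeR adjusted p = 2.01e-05). The fit with the older adult beta names added to Hbb-bs gave a log2 change of -5.28.

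Hbb-y, the embryonic epsilon-y gene, had 7569, 10589 and 15292 CPM in EKLF+/+ cells and 2568, 2974 and 1960.2 CPM in EKLF-/- cells. EKLF+/+ cells varied more among themselves, with replicate 3 highest, and the groups did not overlap. The fitted level was 4.46-fold lower in EKLF-/- cells (log2 change -2.16, SE 0.27, n = 3 per group, edgeR adjusted p = 0.0015).

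Hbb-bh1, the embryonic beta-h1 gene, had 143, 164 and 228 CPM in EKLF+/+ cells and 268, 179 and 227 CPM in EKLF-/- cells. The groups overlapped, with EKLF+/+ replicate 3 inside the EKLF-/- range. The log2 change was 0.34 (SE 0.20, n = 3 per group) with an edgeR adjusted p of 0.241, so a change in Hbb-bh1 was not called in either direction.

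**Figure D1:**
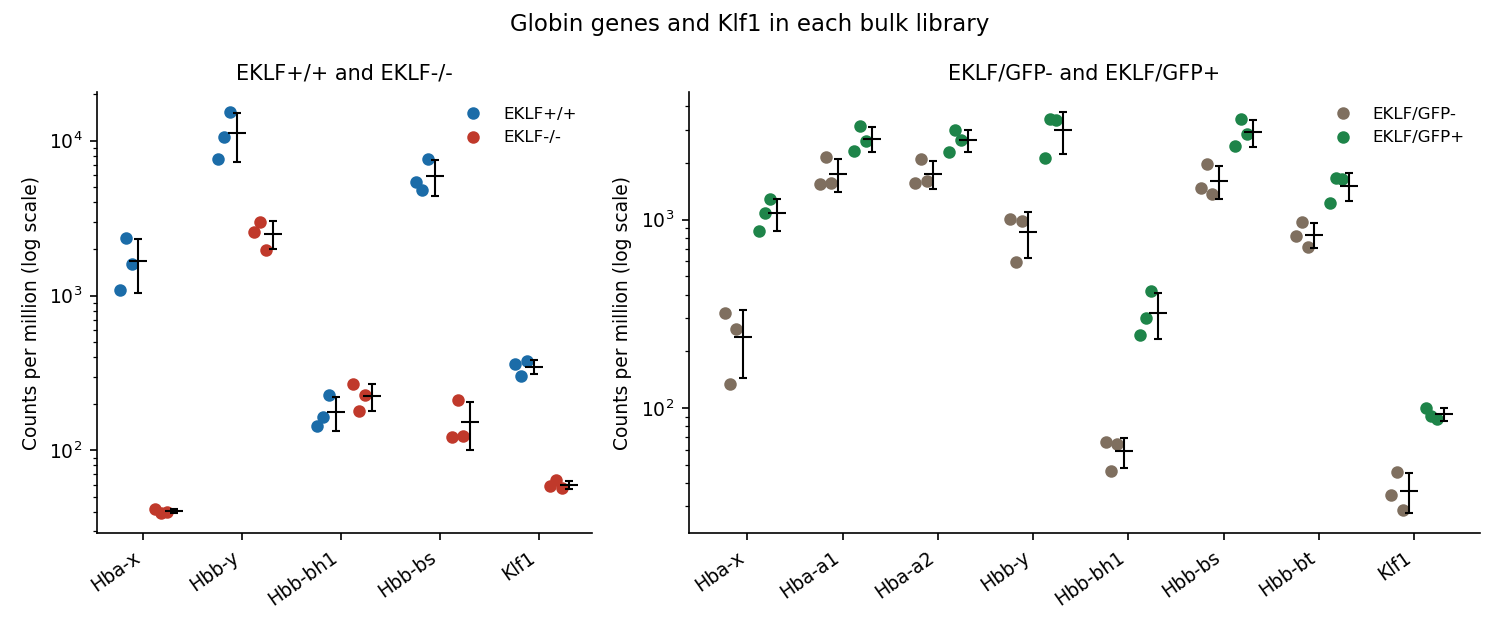
Level in CPM on a log axis for each globin gene tested and Klf1, with a point for each library and a bar for the mean and SD (n = 3 per group), for EKLF+/+ and EKLF-/- cells on the left and EKLF/GFP- and EKLF/GFP+ cells on the right. Hba-x falls from 1090.2 CPM or more to 41.9 CPM or less without EKLF, while the points of Hbb-bh1 overlap between EKLF+/+ and EKLF-/- cells.

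Ratios within a library do not depend on library size and show how the make-up of globin RNA changed. The globin genes took 1.44%, 1.75% and 2.39% of gene counts in EKLF+/+ replicates 1, 2 and 3, against 0.311%, 0.333% and 0.242% without EKLF. Every EKLF-/- library was under every EKLF+/+ library, and the means were 6.28 times apart. With 3 libraries per group, the exact two-sided permutation test cannot give a p under 0.1, and it gave 0.1 here. Adult alpha-globin is missing from these shares.

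Embryonic genes made up 58.9%, 69.2% and 67.0% of the measured beta-like counts in EKLF+/+ cells, against 95.9%, 93.7% and 94.6% in EKLF-/- replicates. The remaining beta-like RNA of EKLF-/- cells was thus nearly all embryonic, and the groups did not overlap (exact two-sided permutation p = 0.1). Because Hbb-bt is not counted, these shares are upper values for the whole beta-globin cluster. Counting unique alignments can also drop reads of Hbb-bs, as 62.6% of its 100-base windows also occur in Hbb-bt.

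Hbb-bh1 made up 1.85%, 1.52% and 1.47% of embryonic beta-like counts in EKLF+/+ cells, against 9.47%, 5.69% and 10.4% in EKLF-/- replicates. The share was higher in every EKLF-/- library (exact two-sided permutation p = 0.1). This ratio was chosen after the values were seen. The 95% Wilson intervals of all these shares are at most 0.42 percentage points wide on either side, and cover counting error only.

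**Figure D2:**
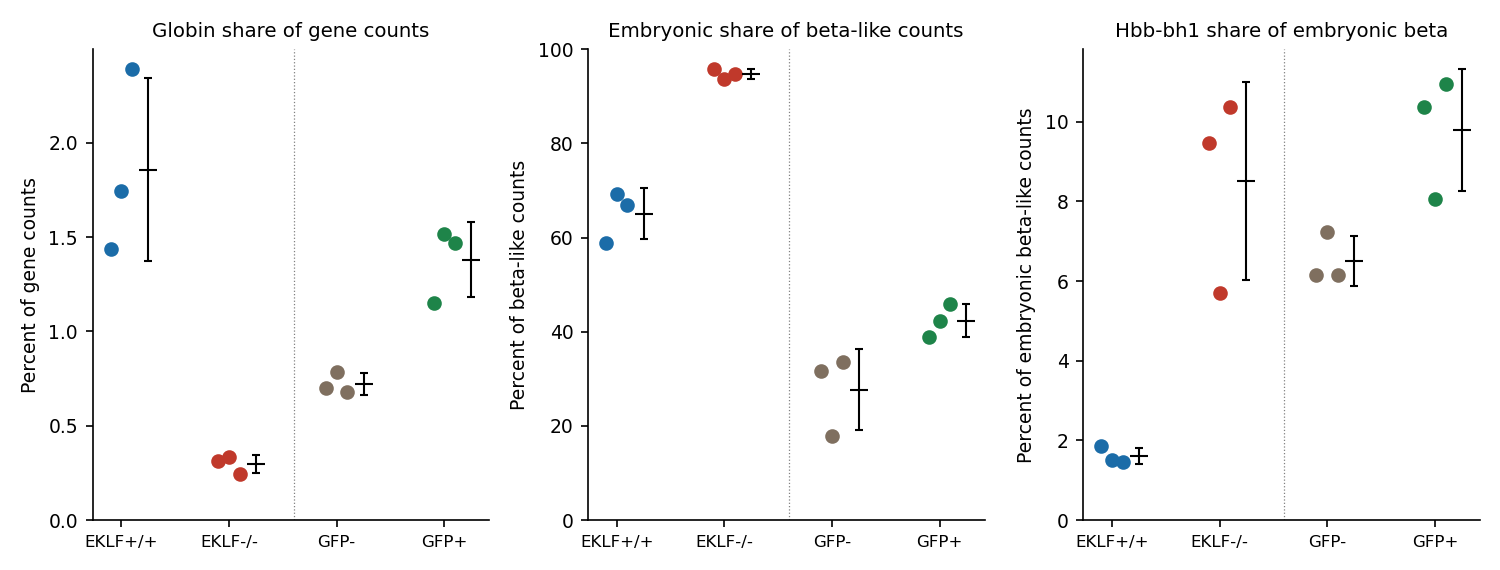
Share of gene counts on the globin genes, embryonic share of beta-like counts and Hbb-bh1 share of embryonic beta-like counts, in percent, with a point for each bulk library and a bar for the mean and SD (n = 3 per group). In EKLF-/- cells the embryonic share of beta-like counts is 93.7% or more, and the pairs of groups on either side of the dotted line were counted by different methods and are not compared.

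The genes known to regulate the globin loci were read from a list of 26, all tested. In EKLF-/- cells 11 of 26 were called lower (10 of 25 without Klf1, the deleted gene itself) and 0 higher, with a median log2 change of -0.39 beside 0.02 over all genes tested. Klf3, a repressor of the same family as EKLF, had 157, 131 and 155 CPM in EKLF+/+ cells and 13.3, 10.6 and 13.7 CPM in EKLF-/- cells (log2 change -3.55, adjusted p = 3.19e-06). Sox6, a repressor of embryonic globin genes, had 127, 129 and 139 CPM and then 14.7, 8.64 and 11.3 CPM (log2 change -3.50, adjusted p = 1.09e-05).

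Bcl11a, another repressor of embryonic and fetal globin genes, had 166, 141 and 156 CPM in EKLF+/+ cells and 50.3, 45.9 and 50.3 CPM in EKLF-/- cells (log2 change -1.66, adjusted p = 3.36e-05). None of these repressors overlapped between the groups. Zbtb7a, a repressor of fetal globin, and Lmo2, a bridging protein in the erythroid GATA1 complex, were also lower, with log2 changes of -0.94 and -0.73 (adjusted p = 0.000761 and 0.00329). Gata1 itself was not called, with a log2 change of 0.26 (SE 0.10, adjusted p = 0.0881).

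Of 8 heme synthesis genes, 4 were lower and 1 higher in EKLF-/- cells, with a median log2 change of -0.40. Alas2, the erythroid enzyme of the rate-limiting step, fell (log2 change -1.01, adjusted p = 0.00247), as did Alad (-1.70, adjusted p = 0.00474), while Uros rose (0.97, adjusted p = 0.00273). Of 8 genes for heme and iron transport, 5 were lower and 0 higher, with a median of -0.70. Slc25a37, the mitochondrial iron importer mitoferrin, went from 2036, 1825 and 2155 CPM to 328, 219 and 293 CPM (log2 change -2.84, adjusted p = 2.58e-05), and Tfrc, the transferrin receptor, had a log2 change of -2.26 (adjusted p = 0.000421).

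Of 12 genes for globin chain balance and redox defence, 1 was higher and 2 were lower, with a median of -0.05. These few calls, beside 20.3% of all genes tested called in either direction, are not read as a change of the list. Cat, the catalase gene, was the higher one (log2 change 0.65, adjusted p = 0.006), and Ulk1, an autophagy kinase, and Prdx2, the red cell peroxiredoxin, were the lower ones (-0.69 and -0.51, adjusted p = 0.00974 and 0.0395). Of 7 other globin genes only 2 had enough counts. Hbq1a, a theta-globin gene next to the alpha-globin genes, was lower (log2 change -2.66, adjusted p = 0.00398). It had 2.13, 2.73 and 2.74 CPM in EKLF+/+ cells and 0.626, 0.153 and 0.385 CPM in EKLF-/- cells. Because Hbq1a passed the count filter only through the EKLF+/+ libraries, its change is given as a description only. Its copy Hbq1b was not called (-0.01, adjusted p = 0.944).

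Of 9 genes for hemoglobin and heme scavenging, 8 were tested, 1 was higher and 1 was lower, with a median of 0.16. Beside the 20.3% called over all genes tested, these calls too are not read as a change of the list. Hp, which encodes haptoglobin, was higher (log2 change 0.87, adjusted p = 0.0329), and Blvrb, a biliverdin reductase gene abundant in red cells, was lower (-1.09, adjusted p = 0.0026).

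Marker lists of cell types were read beside these results. Over all 12753 genes tested, 10.6% were called lower, 9.72% higher and 20.3% in either direction. Erythroid-like markers, which hold no globin gene, summed to 11149, 10768 and 12300 CPM in EKLF+/+ replicates and 6805, 4194 and 5988 CPM in EKLF-/- replicates, with Slc4a1 giving the most counts and no marker at 0. Every EKLF-/- library was under every EKLF+/+ library, and 7 of 11 markers were called lower and 0 higher, or 6 of 10 lower without Klf1, which is in the list.

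Granulocyte-monocyte progenitor-like markers summed to 4413, 4825 and 3466 CPM in EKLF+/+ replicates and 5423, 10454 and 6350.1 CPM in EKLF-/- replicates, led by Mpo, with 4 of 5 called higher. EKLF-/- replicate 2 stood apart, with the lowest erythroid-like and the highest progenitor-like sum. Macrophage-like markers summed to 355, 413 and 417 CPM and then 382, 535 and 362 CPM, led by Csf1r. Of these 12 markers, 3 were called lower, 0 higher and none was at 0. The sums overlapped, and beside the 20.3% called over all genes tested these calls are not read as a change of the list. Adgre1, the gene of F4/80 itself, had 26.8, 33.6 and 32.5 CPM in EKLF+/+ cells and 31.3, 40.3 and 29.4 CPM in EKLF-/- cells, and the groups overlapped (log2 change 0.12, adjusted p = 0.604).

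Among the other marker lists, the calls in EKLF-/- cells were 1 higher and 0 lower of 5 monocyte-like, 3 and 0 of 7 neutrophil-like, 0 and 0 of 5 megakaryocyte-like, 1 and 0 of 4 mast or basophil-like and 2 and 0 of 3 eosinophil-like markers tested. They were 0 higher and 0 lower of 6 hepatoblast-like, 0 and 4 of 6 endothelial-like, 0 and 4 of 5 mesenchymal-like, 0 and 3 of 5 progenitor-like, 1 and 1 of 4 lymphoid-like and 0 and 1 of 1 dendritic-like markers tested, the last being Flt3, which is also among the progenitor-like markers called lower. Beside the 20.3% called over all genes tested, lists with few or no calls are not read as changed. What part differences in these markers have in the globin results was not tested. Measured per 100 counts on the erythroid-like markers, a scale chosen after seeing the data, globin counts were 129, 162 and 194 in EKLF+/+ replicates and 45.7, 79.4 and 40.4 in EKLF-/- replicates. On that scale the groups did not overlap and EKLF-/- cells were lower. The markers include Klf1, and 7 of the 11 were themselves called lower. The scale is thus not a count of erythroid cells, and adult alpha-globin is missing from it.

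The second comparison asks how F4/80+ cells with an active EKLF promoter differ from those without. Klf1 had 101, 90.2 and 87.3 CPM in EKLF/GFP+ replicates 1, 2 and 3, against 34.6, 45.7 and 28.6 CPM in EKLF/GFP- cells. Klf1 RNA was thus higher in every EKLF/GFP+ library but was also present in EKLF/GFP- cells. The log2 change was 1.35 (SE 0.16, n = 3 per group, edgeR adjusted p = 0.000316 over 14248 genes).

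All 7 globin genes were called higher in EKLF/GFP+ cells, the embryonic genes by more than the adult genes. Over all 14248 genes 18.9% were called higher, 25.8% lower and 44.7% in either direction, so a call by itself is common here. RNA was extracted with another kit for EKLF/GFP+ than for EKLF/GFP- cells, and the paper gives a lower RNA quality for EKLF/GFP+ cells than for EKLF+/+ and EKLF-/- cells. The RNA quality of EKLF/GFP- cells is not given in the sources used here. Kit, RNA quality and group cannot be told apart.

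Among the embryonic genes, Hbb-bh1 had 245, 299 and 418 CPM in EKLF/GFP+ replicates and 65.7, 46.2 and 64.5 CPM in EKLF/GFP- replicates. This was the largest fold among the 7 globin genes analysed, 5.46-fold, and the groups did not overlap (log2 change 2.45, SE 0.22, n = 3 per group, edgeR adjusted p = 7.22e-05). Some of the other globin genes described below, at low levels, had larger folds. Hba-x had 865, 1087 and 1291 CPM in EKLF/GFP+ cells and 318, 135 and 263 CPM in EKLF/GFP- cells. EKLF/GFP- replicate 2 was the lowest, and every EKLF/GFP+ library was higher than every EKLF/GFP- library (log2 change 2.18, SE 0.30, n = 3 per group, edgeR adjusted p = 0.000659).

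Hbb-y had 2117, 3417 and 3398 CPM in EKLF/GFP+ cells and 1002, 593 and 985 CPM in EKLF/GFP- cells. Again EKLF/GFP- replicate 2 was lowest, and the groups did not overlap (log2 change 1.79, SE 0.25, n = 3 per group, edgeR adjusted p = 0.00068).

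The adult genes differed by less. Hbb-bs had 2470.1, 3404 and 2861 CPM in EKLF/GFP+ cells and 1477, 1974 and 1364 CPM in EKLF/GFP- cells (log2 change 0.86, SE 0.17, n = 3 per group, edgeR adjusted p = 0.00386). Hbb-bt, the other adult beta gene, had 1224, 1664 and 1645 CPM and then 815, 966 and 719 CPM (log2 change 0.86, SE 0.15, n = 3 per group, edgeR adjusted p = 0.00237). In both genes EKLF/GFP- replicate 2 was the highest of its group and lay under the lowest EKLF/GFP+ library.

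Hba-a1 had 2319, 3128 and 2609 CPM in EKLF/GFP+ cells and 1540.1, 2156 and 1559.5 CPM in EKLF/GFP- cells (log2 change 0.62, SE 0.16, n = 3 per group, edgeR adjusted p = 0.0157). Hba-a2 had 2281, 2978 and 2661 CPM and then 1561, 2087 and 1595 CPM (log2 change 0.60, SE 0.14, n = 3 per group, edgeR adjusted p = 0.0109). The adult alpha genes showed the smallest gap between the groups, and their counts are split between near-identical copies by a model. Summed over both copies, adult alpha-globin had a log2 change of 0.61 (edgeR adjusted p = 0.0131), and adult beta-globin summed in the same way had 0.86 (edgeR adjusted p = 0.00303).

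The calls of the adult alpha genes depended on single libraries. Hba-a1 missed the threshold without EKLF/GFP+ replicate 2 (edgeR adjusted p = 0.050), without EKLF/GFP- replicate 1 (0.0737) and without EKLF/GFP- replicate 3 (0.0547), and Hba-a2 missed it without EKLF/GFP- replicate 1 (0.0562). The log2 change of Hba-a1 stayed between 0.51 and 0.78 over all its alternatives, and that of Hba-a2 between 0.51 and 0.73.

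TPM, which Salmon scales for transcript length and library size, gives an order of the genes that depends on how the model splits reads between transcripts of a gene. In EKLF/GFP+ replicate 1, 39124 of the Hba-a1 counts lay on a transcript with an effective length of 245 bases and 24838 on the main one of 450 bases, and 9988.5 Hbb-bs counts lay on a transcript of 98.4 bases. The main transcripts of Hbb-bs and Hbb-y had 57805 and 58368 counts there, at 379 and 384 bases, so the order of these genes in that library rests on the split. In EKLF/GFP- replicates 1 to 3, Hba-a1 had 3195, 4125 and 2923 TPM, Hba-a2 had 3155, 3983 and 3034 TPM and Hbb-bs had 3363, 4015 and 2432 TPM. These adult genes overlapped at the top of the order. Hbb-y followed with 1608, 899.8 and 1488 TPM, overlapping Hbb-bt at 1106, 1238 and 919 TPM, and below them came Hba-x with 383, 154 and 276 TPM and Hbb-bh1 with 111, 74.0 and 103 TPM.

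In EKLF/GFP+ cells, Hbb-bs had 5590.0, 5386 and 5112 TPM, Hba-a1 had 4691, 5342 and 4971 TPM and Hba-a2 had 4503, 5134 and 5089 TPM. Hbb-y, with 3318.5, 4679 and 5161 TPM, now overlapped these adult genes. Next came Hbb-bt with 1623, 1928 and 2113 TPM, Hba-x with 1085.5, 1194 and 1585 TPM and Hbb-bh1 with 405, 433 and 669 TPM, and these last genes did not overlap each other.

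The make-up of globin RNA differed between the groups. Globin genes took 1.15%, 1.52% and 1.47% of gene counts in EKLF/GFP+ cells, against 0.701%, 0.787% and 0.680% in EKLF/GFP- replicates. Embryonic genes were 39.0%, 42.3% and 45.8% of beta-like counts in EKLF/GFP+ cells and 31.8%, 17.9% and 33.5% in EKLF/GFP- cells. Both shares were higher in every EKLF/GFP+ library (exact two-sided permutation p = 0.1 for each, the smallest possible).

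Hba-x was 15.8%, 15.1% and 19.7% of alpha-like counts in EKLF/GFP+ cells and 9.31%, 3.08% and 7.69% in EKLF/GFP- cells. EKLF/GFP- replicate 2 had the lowest embryonic share of both chain types. Hbb-bh1 was 10.4%, 8.06% and 10.9% of embryonic beta-like counts in EKLF/GFP+ cells and 6.15%, 7.23% and 6.14% in EKLF/GFP- cells, again with no overlap. The exact two-sided permutation p was 0.1 for each of these shares.

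The balance of the chains was measured as beta-like counts per alpha-like count, which was 1.11, 1.22 and 1.27 in EKLF/GFP+ replicates and 0.982, 0.818 and 0.917 in EKLF/GFP- replicates. The ratio was higher in every EKLF/GFP+ library (exact two-sided permutation p = 0.1). Within the adult beta genes, Hbb-bt was 33.1%, 32.8% and 36.5% of counts in EKLF/GFP+ cells and 35.6%, 32.9% and 34.5% in EKLF/GFP- cells. The groups overlapped (exact two-sided permutation p = 0.9).

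Erythroid-like markers moved in the same direction as the globin genes. They summed to 7095, 7791 and 8088 CPM in EKLF/GFP+ replicates and 3063, 3253 and 2631 CPM in EKLF/GFP- replicates, led by Slc4a1, with 11 of 11 called higher (10 of 10 without Klf1) and none at 0. Per 100 counts on these markers, a scale chosen after seeing the data, globin counts were 163, 195 and 182 in EKLF/GFP+ cells and 229, 242 and 258 in EKLF/GFP- cells. On that scale EKLF/GFP+ cells had less globin RNA in every library, the reverse of the share of all gene counts (exact two-sided permutation p = 0.1). This scale rests on RNA of markers that include Klf1, and is not a count of erythroid cells.

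Macrophage-like markers summed to 287, 531 and 726 CPM in EKLF/GFP+ replicates and 471, 375 and 602 CPM in EKLF/GFP- replicates, led by Csf1r, and the groups overlapped. Adgre1 had 36.6, 82.5 and 104 CPM in EKLF/GFP+ cells and 60.3, 48.8 and 84.5 CPM in EKLF/GFP- cells (log2 change 0.21, adjusted p = 0.679). Of these 12 markers 1 was called higher, Hmox1, the heme oxygenase of heme breakdown (log2 change 1.25, adjusted p = 0.00742), 1 was lower, Csf1r, a macrophage growth factor receptor (-1.75, adjusted p = 0.00176), and none was at 0. Granulocyte-monocyte progenitor-like markers summed to 380, 416 and 489 CPM in EKLF/GFP+ cells and 3196, 3313 and 3345 CPM in EKLF/GFP- cells, led by Mpo, with 5 of 5 lower.

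The other marker lists had 0 higher and 5 lower of 5 monocyte-like, 0 and 7 of 7 neutrophil-like, 5 and 0 of 5 megakaryocyte-like, 0 and 0 of 5 mast or basophil-like and 3 and 0 of 3 eosinophil-like markers tested. They had 0 higher and 0 lower of 6 hepatoblast-like, 0 and 4 of 6 endothelial-like, 0 and 1 of 4 mesenchymal-like, 0 and 5 of 5 progenitor-like, 0 and 5 of 5 lymphoid-like and 0 and 3 of 4 dendritic-like markers tested, with Flt3 in both the progenitor-like and the dendritic-like list and lower, and Cd3e, a T cell marker, was at 0. Over all genes tested, 18.9% were called higher and 25.8% lower. Dendritic-like markers summed to only 3.77, 3.39 and 3.93 CPM in EKLF/GFP+ cells, against 48.4, 39.5 and 44.8 CPM in EKLF/GFP- cells. A marker could pass the count filter through the EKLF/GFP- libraries alone, so these counts of lower calls are given as a description only. The part of these markers in the globin results was not tested.

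Of the 26 regulators of the globin loci, 15 were called higher (14 without Klf1) and 5 lower in EKLF/GFP+ cells, with a median log2 change of 0.43 beside -0.01 over all genes tested. Gata1, the erythroid GATA factor, had 85.1, 81.5 and 85.5 CPM in EKLF/GFP+ cells and 31.5, 40.1 and 25.2 CPM in EKLF/GFP- cells (log2 change 1.38, adjusted p = 0.000225). Tal1, its partner in the same complex, had a log2 change of 1.18 (adjusted p = 0.000235). Klf4, a Krüppel-like factor of myeloid cells, had 0.290, 0.249 and 0.278 CPM in EKLF/GFP+ cells and 6.54, 6.12 and 5.60 CPM in EKLF/GFP- cells (log2 change -4.46, adjusted p = 8.13e-06). Klf4 passed the count filter only through the EKLF/GFP- libraries, so its change is given as a description only. It is among the 5 regulators called lower, so that count and the median depend in part on the filter.

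Klf1 is deleted in the first comparison and its promoter defines the second, so its own calls were expected. Of the other 25 regulators, 8 were called in both comparisons, which share no libraries, and 7 of them were lower without EKLF and higher with the active promoter. Of all 11658 genes tested in both, 13% were called in both and 5.34% in those directions. The log2 change was -2.53 without EKLF and 1.35 with the active promoter for Klf1, and likewise -3.55 and 0.93 for Klf3. It was -3.50 and 1.53 for Sox6, and -1.66 and 0.78 for Bcl11a. Zbtb7a had -0.94 and 0.65, Lmo2 had -0.73 and 0.63, Mafk, a small partner protein of Nfe2, had -0.64 and 1.02, and Ldb1, the protein that loops the locus control region to the genes, had -0.45 and 0.59. Myb, a factor of immature blood cells, was lower in both, at -0.40 and -0.91.

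Heme genes rose together with the globins in EKLF/GFP+ cells. All 8 heme synthesis genes were called higher, with a median log2 change of 1.37. Alas2 had 563, 634 and 707 CPM in EKLF/GFP+ cells and 231, 223 and 176 CPM in EKLF/GFP- cells (3.02-fold, adjusted p = 4.93e-05), and Uros had a log2 change of 1.48 (adjusted p = 3.72e-05). All 8 genes for heme and iron transport were higher, with a median of 1.25, among them Slc25a38, the mitochondrial glycine importer (1.31, adjusted p = 1.64e-05), and Abcb10 (1.46, adjusted p = 9.07e-05).

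Of 12 genes for chain balance and redox defence, 10 were higher and 0 lower, with a median log2 change of 0.58. Eif2ak1, the heme-regulated kinase that holds globin translation in step with heme, had 375, 403 and 392.3 CPM in EKLF/GFP+ cells and 205, 221 and 179 CPM in EKLF/GFP- cells (log2 change 0.95, adjusted p = 0.000111). Prdx2 had a log2 change of 1.11 (adjusted p = 0.000159). Of 8 scavenging genes tested, 5 were higher and 2 lower, with a median of 0.60, and Hp was the one with the largest fall (-3.78, adjusted p = 5.69e-06), while Slc40a1, the iron exporter ferroportin, was higher (1.06, adjusted p = 0.00115).

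The other globin genes were read as well. Of 7 listed, 4 had enough counts and all 4 were higher, with a median log2 change of 2.91, at low levels. Hbb-bh0 and Hbb-bh2 had enough counts only because of the EKLF/GFP+ libraries, so this count and median depend in part on the filter. Hbq1b had 37.1, 49.9 and 54.1 CPM in EKLF/GFP+ cells and 13.01, 14.2 and 14.0 CPM in EKLF/GFP- cells (log2 change 1.77, adjusted p = 4.88e-05). Hbb-bh0, a further beta-like gene, had 1.05, 2.82 and 3.82 CPM and then 0.108, 0.106 and 0.424 CPM (log2 change 3.62, adjusted p = 0.00261). Because Hbb-bh0 was tested through the group where it is high, its change is given as a description only.

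Single-cell RNA of EKLF+/+ cells selected for F4/80 shows how globin RNA is spread over cells. After a minimum of 200 detected genes, 3093 of 3096 distinct barcodes were kept, with a median of 18605 counts, and globin genes took 7.38% of all counts. Cells were clustered with all globin genes left out, which gave 14 clusters. A cluster was named from the marker lists, and 6 clusters without a clear match are left unnamed. This is 1 sample, so no test is given, all intervals cover counting error only, and doublets were not removed.

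Globin RNA was concentrated in the erythroid-like clusters 5 and 7, each of which held all 11 erythroid-like markers. Adult globin genes had 26670 counts per 10000 counts on other genes in cluster 7, with 195 cells and a 95% Poisson interval of 26633 to 26706, and 3651 per 10000 in cluster 5, with 269 cells and an interval of 3647 to 3656. In cluster 7 globin genes took 74.6% of all counts, and in cluster 5 they took 26.8%. Klf1 was at 1.44 and 2.27 counts per 10000 in clusters 7 and 5. In their cells with adult beta-globin, as defined below, it was at 2.28 in 130 cells of cluster 7 and 2.34 in 248 cells of cluster 5, and in 34 embryonic cells of cluster 7 it was at 0.274.

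Next in order came unnamed cluster 9, with markers of both macrophage-like and erythroid-like cells, at 1209 adult globin counts per 10000, and then macrophage-like cluster 3 at 216. Unnamed clusters 2 and 1 had 128 and 115, unnamed cluster 8 had 99.0, and macrophage-like cluster 0 had 84.8. The lowest levels were 47.1 in endothelial-like cluster 12, 35.5 and 34.4 in unnamed clusters 6 and 10, 34.7 in monocyte-like cluster 4, 32.7 in megakaryocyte-like cluster 11 and 31.8 in hepatoblast-like cluster 13. In this order the Poisson intervals of neighbours overlapped for clusters 6 and 4, 4 and 10, and 11 and 13, and for no other neighbours.

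The middle of this order rests on few cells. The 10 cells with the most Hba-a1 held 84.7% of its counts in cluster 9, 81.1% in cluster 3, 62.3% in cluster 2, 64.4% in cluster 1, 34.5% in cluster 8 and 40.4% in cluster 0, out of 117, 302, 362, 386, 157 and 448 cells. For Hbb-bs these shares were 82.8%, 65.9%, 46.9%, 67.3%, 52.0% and 49.0%. The median cell had 198, 55, 54, 86, 257 and 102.5 globin counts in the same clusters, at median depths of 8358, 9804.5, 9500.5, 20300.5, 51652 and 21243 counts. In cluster 9 the highest cell had 19294 globin counts. The pooled levels of these clusters are therefore not those of a typical cell.

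Cluster 8 had Klf1 without much globin. Klf1 was counted in 96.2% of its 157 cells, at a median of 51652 counts per cell, and in 7.81% of the 64 hepatoblast-like cells, at a median of 25304 counts per cell. Its Klf1 level was 1.37 per 10000, under that of the adult cells of clusters 7 and 5, and its adult globin level was 99.0 per 10000. Of the 11 erythroid-like markers, 4, namely Klf1, Rhag, Rhd and Ermap, passed the limits used for naming in cluster 8. At resolution 0.4, 156 of its 157 cells and 88 of the 89 megakaryocyte-like cells fell into 1 cluster of 245 cells, named megakaryocyte-like, so cluster 8 is not kept apart from them at that setting.

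Globin RNA was also counted in clusters named for other cell types, and its source there was not tested. Hbb-y was counted in 89.1% of hepatoblast-like cells (median depth 25304 counts) and in 93.3% of monocyte-like cells (median depth 23368 counts), beside 92.5% of erythroid-like cells (median depth 21070 counts), so the share of cells with Hbb-y does not tell them apart. The embryonic share of beta-like counts was 6.64% in monocyte-like, 7.38% in megakaryocyte-like, 6.29% in endothelial-like and 7.41% in hepatoblast-like cells.

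In the erythroid-like clusters, the embryonic share of beta-like counts was 0.652% in cluster 5 and 14.8% in cluster 7. The 10 highest cells held 84.6% of the Hbb-y counts of cluster 5 and 51.2% of those of cluster 7, and the median cells had 4 and 3 Hbb-y counts. With at least 1000 detected genes required, the shares of the erythroid-like clusters were 0.652% and 0.0637%, so the higher share of cluster 7 depends on the filter. In macrophage-like cluster 3 it was 51.8%, but 97.7% of its Hbb-y counts came from its 10 highest cells of 302, and the median cell had 2 Hbb-y counts.

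Hbb-bh1 differed more between cell types. It was counted in 29.0% of cells of cluster 5 and 25.6% of cells of cluster 7, and in 3.12% of hepatoblast-like, 5.61% of monocyte-like and 8.27% of macrophage-like cells. Median depths were 29433, 16477, 25304, 23368 and 14365 counts. After each cell was thinned to 5000 counts, Hbb-bh1 was counted in 17.3% of erythroid-like cells and 3.41% of macrophage-like cells.

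**Figure D3:**
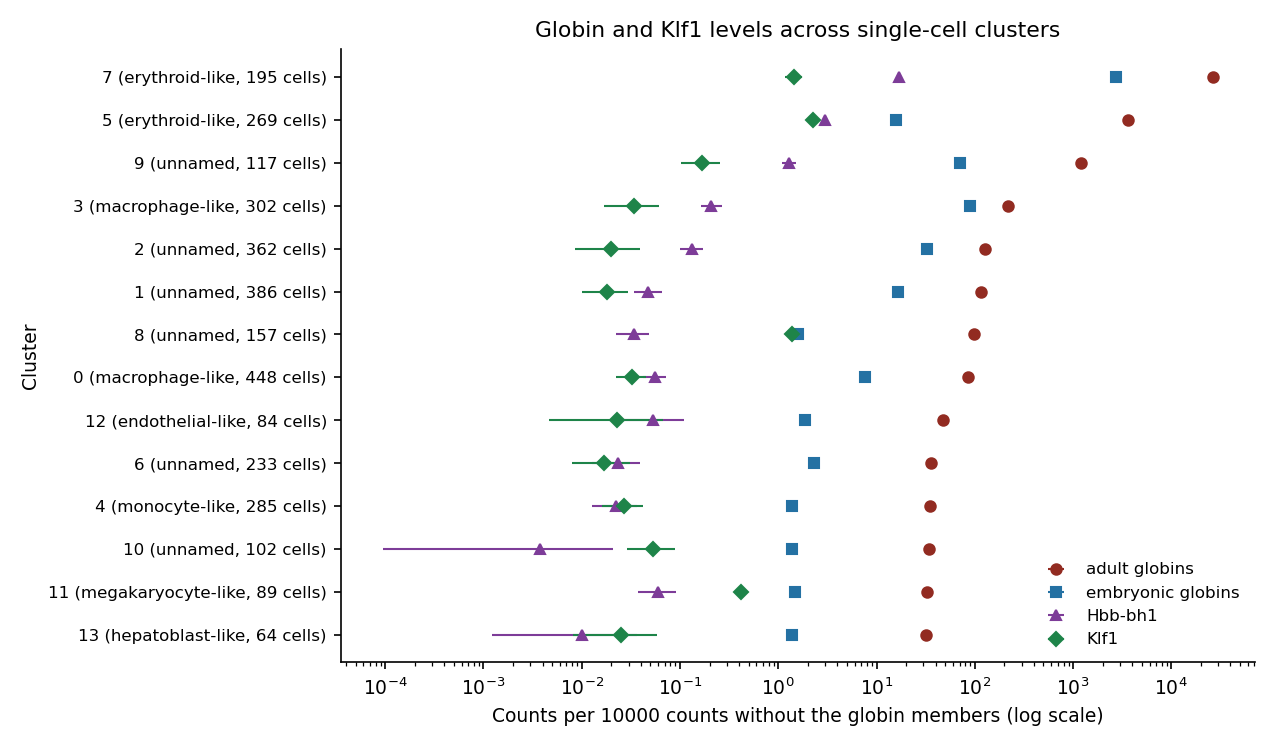
Counts per 10000 counts on non-globin genes, on a log axis, for adult globins, embryonic globins, Hbb-bh1 and Klf1 in each single-cell cluster, with 95% Poisson intervals as bars. Clusters 7 and 5 have the most adult globin, at 26670 and 3651 per 10000, while cluster 8 has Klf1 at 1.37 with adult globin at 99.0.

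Single cells separated into cells with embryonic and cells with adult beta-globin. With limits chosen after the values were seen, 474 cells had at least 1000 globin counts. Of these, 51 had an embryonic share of beta-like counts over 70%, 417 had a share under 5%, and only 6 lay between. The 51 embryonic cells ranged from 74.0% to 99.2% with a median of 87.4%, and the 417 adult cells had a median of 0.0782%.

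In the 51 embryonic cells, Hba-x was 2.40% to 48.0% of alpha-like counts with a median of 13.2%, so most of their alpha-like RNA was adult. They had a median of 4330 Hbb-y counts and 610 Hba-x counts per cell. Klf1 was counted in 5 of these 51 cells and in 331 of the 417 adult cells, at medians of 4028 and 10026 non-globin counts, but 248 of the adult cells were in cluster 5. Within cluster 7 it was counted in 3 of 34 embryonic and 65 of 130 adult cells, at medians of 2545 and 3226 non-globin counts. There globin genes took a median of 80.5% of all counts in the embryonic cells and 81.2% in the adult cells.

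Of the 51 embryonic cells 34 were in erythroid-like cluster 7, 0 in cluster 5, 8 in macrophage-like clusters and 9 in unnamed clusters. C1qa, a complement gene of macrophages, was counted in 32 of these 51 cells, with a median of 1 count and at most 130. It was counted in 303 of the 417 adult cells, also with a median of 1 count. Whether a droplet held more than 1 cell was not tested.

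The embryonic cells had few detected genes, from 423 to 6333 with a median of 1335, so a stricter cell filter moves them. With at least 1000 detected genes required, 16 of the 51 cells were left out, 19 fell into an unnamed cluster and 0 into an erythroid-like cluster. That unnamed cluster passed the naming limits for 6 of 12 macrophage-like markers, 1 erythroid-like marker and 1 endothelial-like marker. The remaining cells fell into macrophage-like clusters (3 and 4 cells), other unnamed clusters (2, 4 and 2) and a granulocyte-monocyte progenitor-like cluster (1). Embryonic globins in the erythroid-like clusters then had 15.0 counts per 10000 in place of 324, so the embryonic level of that cell type depends on the filter.

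**Figure D4:**
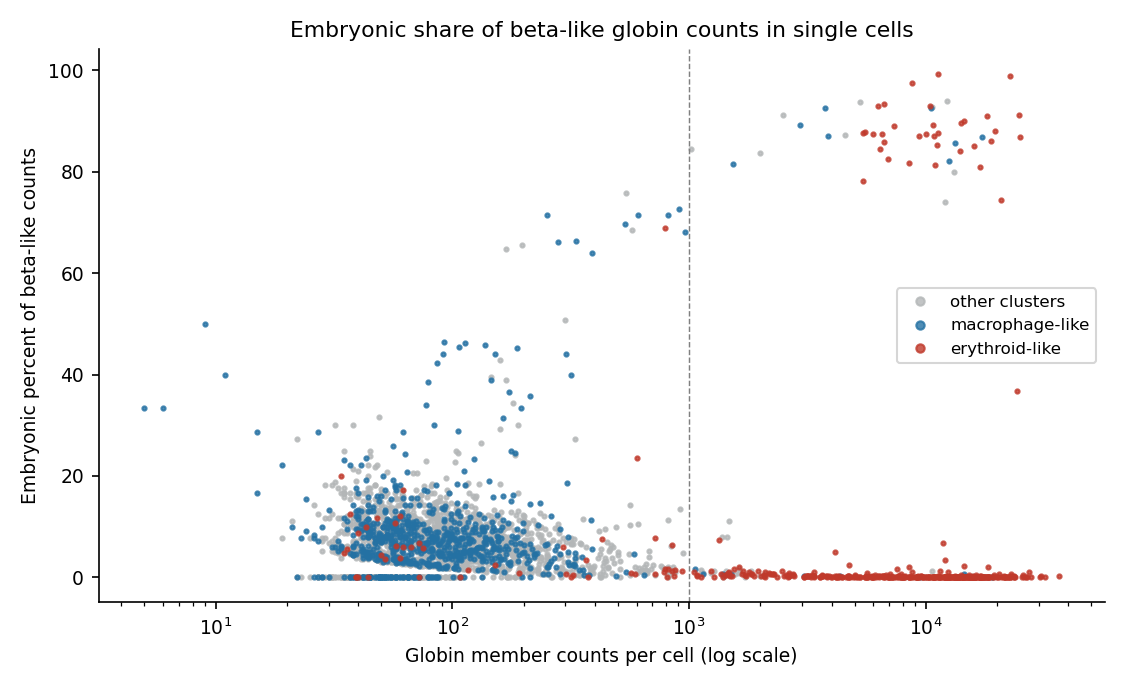
Embryonic percent of beta-like counts against globin counts per cell on a log axis, with a point for each single cell and a dashed line at 1000 globin counts. To the right of the line 51 cells lie over 70% and 417 cells lie under 5%.

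Hbb-bh1 was also counted in cells with little Hbb-y. Of 37 cells with at least 20 Hbb-bh1 counts, a limit chosen after the values were seen, 22 had at most 10 Hbb-y counts (from 1 to 7, with a median of 4) and 14 had an embryonic share over 70%. Of the 22 cells with little Hbb-y, 20 were in cluster 5, with 23 to 217 Hbb-bh1 counts and a median of 57. Of the 14 cells 12 were in cluster 7. Hbb-bh1 was thus counted in cells of both kinds, and it made up 21.9% of embryonic beta-like counts in cluster 5 and 0.731% in cluster 7. The 10 highest cells held 67.9% and 79.9% of the Hbb-bh1 counts of these clusters. With at least 1000 detected genes required, the shares of the erythroid-like clusters were 21.8% and 27.7%, so this difference depends on the filter.

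Across the 14 clusters, the genes whose level was most like that of the summed adult globins were Grina, Psme4, March8, Slc4a1 and Samd11, out of 13622 genes compared, with a Pearson r of log2 levels from 0.99 to 0.96. Slc4a1 encodes the red cell anion exchanger. For the summed embryonic globins, the most similar genes were Csnk2a3, Sqstm1, Gm10288, Rps6-ps4 and Gm10131, with r from 0.95 to 0.94. Klf1 ranked 690 for adult globins, with r = 0.69, and 1735 for embryonic globins, with r = 0.33. These are descriptions over clusters of 1 library that differ in depth. In several clusters the pooled levels rest on few cells, with 97.7% of Hbb-y counts of cluster 3 and 97.2% of those of cluster 9 in 10 cells.

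The promoters of 6 of the 7 globin genes were found in the RefSeq table for GRCm38.p6, all except Hbb-bh1. In the window of 250 bases before to 50 bases after the start, on both strands, CACCC occurred in all 6, and 57.5% of the 32851 promoters in the table hold it. CCACACCC, which contains CACCC, occurred only in Hbb-bs, 93 bases before the start, and in 3.56% of all promoters. AGATAA or TGATAA occurred in 5 of the 6, all but Hbb-bt, and in 18.6% of all promoters.

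CCAAT occurred in 5 of the 6, all but Hba-x, and in 37.4% of all promoters. TATAAA or CATAAA occurred in Hba-x, Hbb-y and Hbb-bt and in 22.8% of all promoters. TGACTCA or TGAGTCA occurred in Hbb-bs, after the start, and in 5.2% of all promoters. The 250 bases before the start of Hba-a1 and Hba-a2 share an unbroken run of 247 bases, and the longest run shared by Hbb-bs and Hbb-bt is 14 bases. A match is a description and does not show that a factor binds.

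The 250 bases before the RefSeq start are printed for the globin genes that fell in EKLF-/- cells, with CACCC in capitals, so that its place can be compared between the gene with CCACACCC and those without. They come from GRCm38.p6, at chr11:32276350-32276599 on the plus strand for Hba-x, chr7:103853208-103853457 on the minus strand for Hbb-y and chr7:103827929-103828178 on the minus strand for Hbb-bs. CACCC starts 198 and 95 bases before the start in Hba-x, 111 bases before it in Hbb-y and 90 bases before it in Hbb-bs. The RefSeq starts differ from the gene spans given above.
Hba-x: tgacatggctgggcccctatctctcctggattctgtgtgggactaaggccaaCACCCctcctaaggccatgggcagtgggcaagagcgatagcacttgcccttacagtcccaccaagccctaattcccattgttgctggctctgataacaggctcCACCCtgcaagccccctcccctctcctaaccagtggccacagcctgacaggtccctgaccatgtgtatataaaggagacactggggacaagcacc
Hbb-y: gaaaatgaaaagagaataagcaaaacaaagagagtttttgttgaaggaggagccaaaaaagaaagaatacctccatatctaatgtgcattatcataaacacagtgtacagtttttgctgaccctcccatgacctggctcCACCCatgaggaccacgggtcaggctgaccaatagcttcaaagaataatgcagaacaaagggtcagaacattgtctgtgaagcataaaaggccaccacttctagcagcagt
Hbb-bs: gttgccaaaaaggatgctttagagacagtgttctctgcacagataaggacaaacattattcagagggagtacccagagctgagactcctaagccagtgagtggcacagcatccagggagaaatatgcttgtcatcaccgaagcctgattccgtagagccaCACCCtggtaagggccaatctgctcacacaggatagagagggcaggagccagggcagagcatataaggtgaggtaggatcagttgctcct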

How the data were processed

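RNA was measured in 12 bulk libraries and 1 single-cell library. For EKLF+/+ and EKLF-/- cells, the authors deposited raw counts per gene from STAR on mm10 and htseq-count. Of all reads, 38.7% to 44.2% fell on no gene, 24.8% to 29.8% aligned to more than 1 place and 0.331% to 0.468% were ambiguous, and these were left out. The file of EKLF+/+ replicate 1 also holds 5 columns that repeat counts of other libraries, and they were left aside. Older symbols were translated for 1917 genes. For EKLF/GFP cells, the authors' Salmon values per transcript, deposited as estimated counts (expected counts) and TPM, were summed per gene, and the counts were rounded. The authors' normalized counts, a signal scaled by size factors, were used in an alternative only. Single-cell values are the authors' estimated counts from Alevin. The authors' log2 table was not used.

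The members and lists were chosen with earlier results of these data known. Named by rule were each globin gene, Klf1, up to 6 genes per list with the lowest adjusted p, regulators called in both comparisons, and the 5 genes most like the globins over clusters, and of those chosen by list the ones described are examples. The result of 1 of the marker genes is not reported here. Lists covered regulators of the globin loci, heme synthesis, heme and iron transport, chain balance and redox, other globins, scavenging, and markers of 14 cell types. Comparisons used edgeR 4.0.16 (TMM, at least 10 counts in at least 3 of 6 libraries, quasi-likelihood test, two-sided, Benjamini-Hochberg over all genes tested, threshold 0.05). Shares were compared by exact two-sided permutation. Alternatives used DESeq2 1.42.0, limma 3.58.1, size factors by DESeq2, other filters, globins left out of scaling, a replicate block, and each library left out. The denominator of erythroid-like marker counts was chosen after seeing the data. Single cells were clustered with Seurat 5.3.0 (4000 variable genes, 30 components, resolution 0.8) without 11 globin genes. A cluster took the name of the list with the largest share of its markers at least 2 times higher than in other cells and counted in at least 25% of cells, with at least 3 such markers, at least 1 among the 10 genes with the largest fold, and no other list with more there. Software was Python 3.11.15 with pandas 2.3.3, scipy 1.17.1, numpy 2.4.6 and matplotlib 3.10.9, and R 4.3.3.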

Additional observations from a re-analysis of the deposited data

How the results depend on the processing

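In EKLF-/- cells, the 4 globin genes tested kept their direction and their side of the threshold in all 52 refits, and in EKLF/GFP+ cells 90 of 96 refits of the 7 genes did. The other 6 were the adult alpha genes given above without single libraries, and both with limma on the authors' normalized counts (adjusted p = 0.0566 for Hba-a1 and 0.0514 for Hba-a2). The refits include the fit with adult copies summed, which could hardly move the embryonic genes. In EKLF-/- cells Hba-x had a log2 change of -5.37 in that fit and in the main fit. The number of genes called in EKLF-/- cells moved with single libraries, from 346 to 1730 higher and from 575 to 1889 lower when each library was left out, and the cause was not tested. Higher calls were 346, 417 and 370 without EKLF+/+ replicates 1, 2 and 3 and 426 without EKLF-/- replicate 3, and lower calls were 576, 609, 632 and 575. With limma, 1515 genes were called higher in EKLF/GFP+ cells.

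With the replicate number as a replicate block, 3 globin genes were called lower in EKLF-/- cells and 7 higher in EKLF/GFP+ cells, among 864 higher and 1037 lower genes and 2363 higher and 3426 lower genes. Libraries of the same number were not alike across groups (r from -0.146 to 0.020), and the shares have no paired fit.

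The difference in the globin share of counts, in percentage points, was -0.424 for EKLF-/- cells with all reads as the denominator and 1.05 for EKLF/GFP+ cells in TPM. Per 100 counts on erythroid-like markers it was -107 and -63.3, the latter the reverse of the share of gene counts. In the erythroid-like clusters, adult globins had 6254 counts per 10000, then 5529 with at least 1000 detected genes and 6223 at resolution 0.4. Embryonic globins had 324, then 15.0 and 323. After thinning, Hbb-y was counted in 53.3% and Hbb-bh1 in 17.3% of erythroid-like cells. Adult alpha-globin cannot be measured by the EKLF+/+ and EKLF-/- counts.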

Other observations

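Megakaryocyte-like cells also held Klf1 RNA. Klf1 was counted in 55.1% of the 89 megakaryocyte-like cells (median depth 36031 counts) and in 7.81% of the 64 hepatoblast-like cells (median depth 25304 counts), at 0.419 and 0.0252 counts per 10000. Adult globins in the same clusters had 32.7 and 31.8 counts per 10000.

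Among the adult alpha copies, Hba-a2 made up 19.9% of counts in cluster 5, 22.6% in cluster 7 and 17.1% in cluster 8. It made up from 22.5% to 24.9% in the monocyte-like, megakaryocyte-like, endothelial-like and hepatoblast-like clusters. In macrophage-like clusters 3 and 0 it was 21.4% and 22.5%. Unnamed clusters 2, 1, 6, 9 and 10 had 21.9%, 22.7%, 23.5%, 23.0% and 23.8%. In cluster 8, 10 cells held 34.5% of the Hba-a1 counts. Of the 100-base windows of Hba-a2, 74.5% also occur in Hba-a1, and how reads were split between the copies was not tested.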
